A study of Mus musculus with 2 samples.

Results

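Cadherins are calcium-dependent adhesion proteins of the cell surface. Classical cadherins bind the same cadherin on a neighbouring cell through extracellular repeats and hold catenins, the link to actin, with their intracellular tail. Protocadherins lack the catenin-binding tail. The clustered ones are made from arrays of alternative first exons on 1 chromosome and give neurons a surface identity, and the non-clustered delta protocadherins act in cell sorting and migration. In the face, cadherins mark tissue layers: E- and P-cadherin epithelium, N-cadherin and cadherin 11 mesenchyme, VE-cadherin endothelium.

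The members described here are the genes of both deposited tables that carry a numbered Cdh name or a Pcdh name, except Cdh1, Cdh5, Cdh15 and Cdh19, which mark other cell types. This gave 88 of 30723 genes, taken by name, though the rule was set with earlier results of these data known. They are 14 classical cadherins, 5 other cadherins, 57 clustered protocadherins and 12 non-clustered protocadherins. Their levels were compared in mandibular prominences, from which the lower jaw and much of the tongue arise, of mouse embryos labelled E11.5. The mutant group is Kif3a f/f ; Wnt1-Cre, in which Wnt1-Cre removes the floxed gene for the cilium motor subunit Kif3a from neural crest cells and their descendants, but not from epithelium, endothelium, blood or muscle precursors. The other group is labelled control, with no alleles given. Both are on a mixed CD1 background, and each is 1 library of total RNA from 10 pooled embryos. The table names put the mutant at day 11 and the control at the labelled stage, with separate run numbers, so that stage, run and genotype cannot be told apart.

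With 1 library per group there is no test between conditions and no replicate check. Levels are FPKM, fragment counts per length of transcript and per mapped total, summed over the transcripts of a gene. Ratios are Kif3a mutant over control, and ranges in parentheses are 95% counting intervals on approximate fragments, about 24500000 in the mutant and 24700000 in the control library, rounded. They cover counting error only. Kif3a itself stood at 5.39 FPKM in the mutant and 11.46 FPKM in the control. The 12259 genes whose FPKM averaged at least 1 over the libraries were compared on the scale log2(FPKM + 1). Of these, 94 (0.767%) reached a 2-fold higher value in the mutant library and 167 (1.36%) a 2-fold lower one. This split depended on the scaling. Higher and lower genes numbered 132 and 129 once the median gene was put at 0, 128 and 137 on the 75th percentile, and 467 and 68 in TPM-like units. They numbered 161 and 110 in TPM-like units that ignore transcripts shorter than 200 bases, and 126 and 109 with the length trend subtracted. The median gene had a log2 ratio of -0.13 and an FPKM ratio of 0.902. These scalings moved the median log2 ratio to between -0.01 and 0.39, so "below" and "above" are used here relative to the median gene. Longer transcripts were higher in the mutant library: the median of log2 ratios was -0.17 at 2000 to 3000 bases (2872 genes), -0.03 at 4000 to 5000 bases (1373 genes) and 0.28 at 8000 to 12000 bases (363 genes). Most members are long, so the log2 ratios that the results turn on are also given minus the value of this trend at the length of the gene. Oral epithelial markers were above the median gene in 7 of 7 cases and endothelial markers below it in 6 of 7, while 3 of 6 mesenchyme markers were below it, and all 5 erythroid markers were at least 2-fold lower, with a sum of 5286 FPKM in the mutant and 20277 FPKM in the control. In bulk tissue, fewer cells of a type and less RNA per cell cannot be told apart.

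Of the 88 members, 27 passed a mean FPKM of 1, and 0 of these were at least 2-fold higher or lower, against 2.13% of all genes. Of the 27, 14 were below the median gene and 13 above, against 50% by definition for all genes and 29.6% below for the 2122 genes of 4000 to 6000 bases. After removal of the length trend, 16 were below and 11 above. The counting interval lay wholly below the median ratio for 8 members and wholly above for 11, where 29.1% and 32.1% of all genes did so. The most abundant members on average were Cdh11, Pcdhgc3, Pcdh18 and Cdh2, and all 4 were lower in the mutant, as were 67.9% of all genes. The other 61 members lay under the filter, 46 of them lower and 11 higher in the mutant, with 4 listed at 0 in both libraries. Of the 4791 genes with a mean FPKM of 0.05 to 1, called low genes here, 53.6% were lower in the mutant. Members that averaged less than 0.05 FPKM, among them every alpha gene under the filter, lie outside this range. They are nonetheless counted wherever this share is set beside members below.

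**Figure D1:**
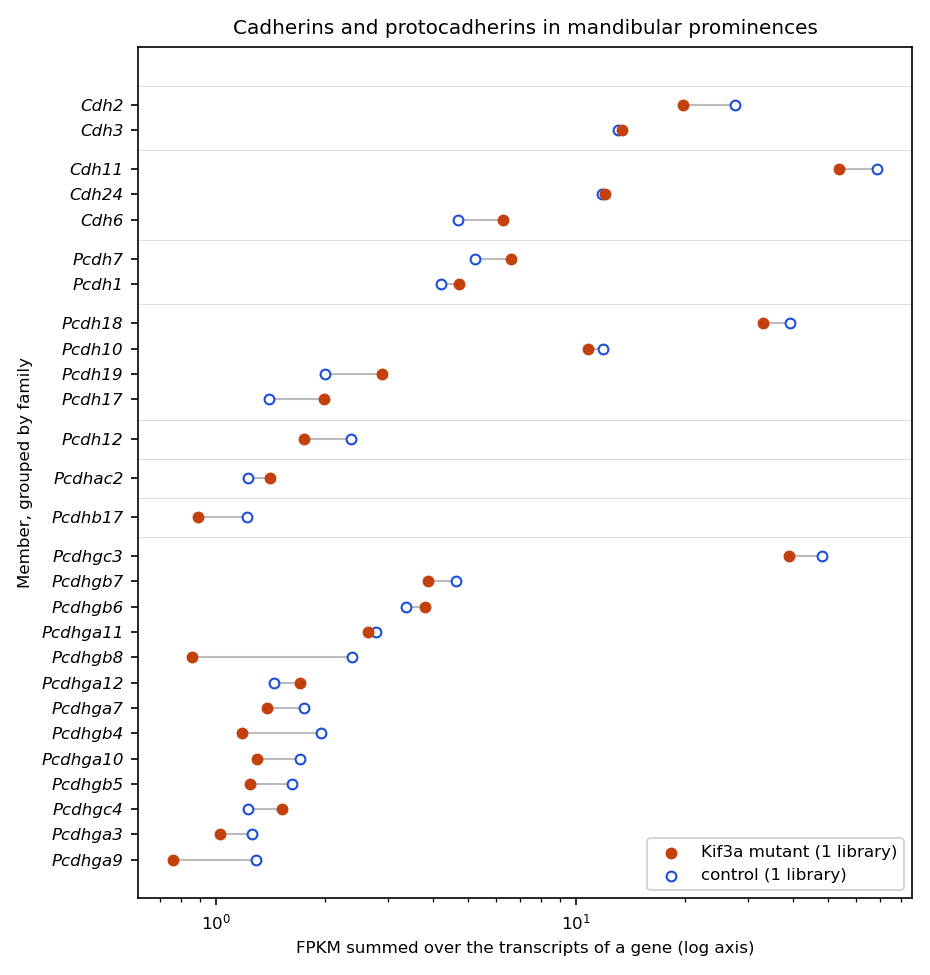
FPKM of the 27 members over the filter in the Kif3a mutant library (filled orange) and the control library (open blue), on a log axis, 1 library each, with families separated by lines. Cdh11, Pcdhgc3, Pcdh18 and Cdh2 stand furthest right and have the filled point left of the open one.

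The classical cadherins were led by Cdh11, the mesenchymal type II cadherin also made by osteoblasts, at chr8:102632995-102785111 on the minus strand. It stood at 53.8 FPKM in the mutant and 68.4 FPKM in the control, 1.27-fold lower (1.23 to 1.32), a log2 ratio of -0.34. Cdh2, N-cadherin, the type I cadherin of mesenchyme, muscle precursors and neural tissue, stood at 19.8 FPKM in the mutant and 27.6 FPKM in the control, 1.39-fold lower (1.32 to 1.47), a log2 ratio of -0.46. Both stayed below the median gene under every alternative that could change their side, and minus the length trend their log2 ratios were -0.29 and -0.44. They were also the only classical members over the filter that were below it. Cdh11 held 50.2% of the summed FPKM of classical cadherins in the mutant and 53.5% in the control, and Cdh2 18.5% and 21.6% in the same order. Of the markers of mesenchyme, Twist1 and Hand2 had log2 ratios of -0.39 and -0.41 and Prrx1 and Msx1 of 0.20 and 0.36, with a sum over all 6 of 519 FPKM in the mutant and 558 FPKM in the control. The 6 muscle precursor markers summed to 4.49 FPKM in the mutant and 23.2 FPKM in the control, and 0 were listed at 0 in both libraries. The part of these cells in the values of Cdh11 and Cdh2 was not tested.

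Cdh6, a type II cadherin of early neural crest and kidney, went the other way. It stood at 6.27 FPKM in the mutant and 4.68 FPKM in the control, a ratio of 1.34 (1.16 to 1.55), and its log2 ratio of 0.36 became 0.51 minus the length trend, since its transcript has 2632 bases. It stayed above the median gene under every alternative that could change its side. Cdh6 held 5.85% of the summed FPKM of classical cadherins in the mutant and 3.67% in the control.

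Cdh3 and Cdh24 had ratios near 1, which lies above the median gene. Cdh3, P-cadherin of epithelium, lies at chr8:106510891-106556908, just before Cdh1 on the same strand. It stood at 13.4 FPKM in the mutant and 13.1 FPKM in the control, a ratio of 1.03 (0.952 to 1.11), with a log2 ratio of 0.03, or 0.10 minus the length trend. Its neighbour Cdh1, E-cadherin, which is not a member, stood at 16.1 FPKM in the mutant and 13.2 FPKM in the control. The 7 epithelial markers, Cdh1 among them, summed to 170.2 FPKM in the mutant and 134 FPKM in the control and had a median log2 ratio of 0.35, above the 0.03 of Cdh3. Their part in the value of Cdh3 was not tested. Its transcripts of 3995 and 3992 bases, which share their locus, stood at 11.4 and 2.08 FPKM in the mutant and at 9.76 and 3.35 FPKM in the control. The shorter one thus made up 15.5% of Cdh3 in the mutant and 25.5% in the control, though estimates for transcripts this alike are uncertain. Cdh24, a type II cadherin that binds catenins, stood at 12.01 FPKM in the mutant and 11.8 FPKM in the control, a ratio of 1.02 (0.924 to 1.13), with a log2 ratio of 0.03, or 0.17 minus the length trend. Both intervals lay above the median ratio of 0.902, and both genes stayed above the median gene under every alternative that could change their side.

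The level of Cdh2 was 1.47 times that of Cdh3 in the mutant and 2.10 times in the control, per length. Cdh11 was 4.001 times Cdh3 in the mutant and 5.22 times in the control. The 5 classical members over the filter had a median log2 ratio of 0.03, which is the value of Cdh24 and hides that they lie on both sides. Summed over all 14, classical cadherins gave 107 FPKM in the mutant and 128 FPKM in the control, a ratio of 0.839 (0.819 to 0.861).

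The other 9 classical cadherins were low, and 8 of them were lower in the mutant, where 53.6% of low genes were. Of these 8, Cdh7, Cdh9, Cdh18, Cdh20 and Cdh22 rest on 2 to 8 fragments a library. Cdh4, R-cadherin, stood at 0.864 FPKM in the mutant and 0.899 FPKM in the control, a ratio of 0.962 (0.759 to 1.22). Cdh10, a type II cadherin of the nervous system, stood at 0.372 FPKM in the mutant and 0.593 FPKM in the control on about 30 and 48 fragments, a ratio of 0.628 (0.384 to 1.01). Cdh8, another neural cadherin, was the exception at 0.399 FPKM in the mutant and 0.208 FPKM in the control, a ratio of 1.92 (1.02 to 3.76) on about 31 and 16 fragments. Neither group held more than 0.137 FPKM of Cdh7, Cdh9, Cdh12, Cdh18, Cdh20 or Cdh22.

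None of the 5 other cadherins passed the filter. Cdh13, T-cadherin, which is anchored by a lipid and has no intracellular tail, stood at 0.253 FPKM in the mutant and 0.487 FPKM in the control on about 14 and 19 fragments, a ratio of 0.518 (0.241 to 1.09). Cdh26 and the tip link cadherin of hair cells, Cdh23, were listed at 0 in the mutant and at 0.158 and 0.137 FPKM in the control, on about 12 and 6 fragments. Cdh17 had about 3 fragments in the control and Cdh16, the kidney cadherin, was listed at 0 in both.

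**Figure D2:**
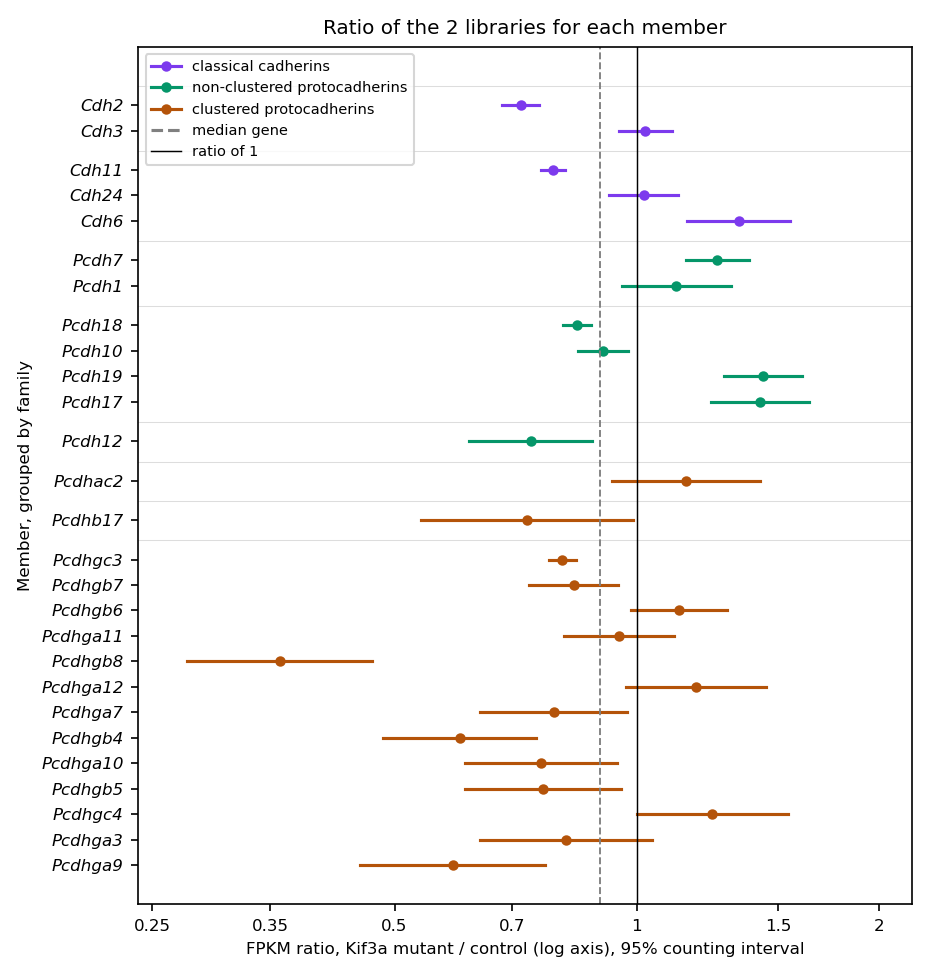
FPKM ratio of Kif3a mutant over control (log axis) with its 95% counting interval for the 27 members over the filter, coloured by family, with the ratio of 1 (solid line) and that of the median gene, 0.902 (dashed). Cdh2, Cdh11, Pcdh18 and Pcdhgc3 have short intervals left of the dashed line, and Cdh6, Pcdh7, Pcdh17 and Pcdh19 lie right of the solid line.

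The delta-2 protocadherins, whose tails bind the WAVE complex that drives actin branching, did not share a direction. Pcdh18 was the most abundant, at chr3:49743296-49757316, and stood at 32.98 FPKM in the mutant and 39.2 FPKM in the control, 1.19-fold lower (1.14 to 1.24). Its log2 ratio of -0.24 was -0.25 minus the length trend, and it stayed below the median gene under every alternative that could change its side. Pcdh10, at chr3:45378398-45434579, stood at 10.8 FPKM in the mutant and 11.9 FPKM in the control, a ratio of 0.908 (0.846 to 0.976) that lay at the median gene. Of its 4 transcripts, the one of 4638 bases stood at 0.784 FPKM in the mutant and 1.44 FPKM in the control, and the most abundant one, of 4234 bases, at 7.46 FPKM in the mutant and 7.74 FPKM in the control.

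Pcdh19, on the X chromosome, which can pair with N-cadherin on the same cell, stood at 2.88 FPKM in the mutant and 2.005 FPKM in the control, a ratio of 1.44 (1.29 to 1.61). Pcdh17 stood at 1.99 FPKM in the mutant and 1.398 FPKM in the control, a ratio of 1.42 (1.24 to 1.64). Both have the longest transcripts of the members over the filter, of 10150 and 9509 bases. Their log2 ratios of 0.37 and 0.32 shrank to 0.04 and 0.02 minus the length trend, so they sit where genes of their length sit. The fifth delta-2 gene, Pcdh8, which is known for its role in somites, had only about 11 fragments in the mutant and 16 in the control.

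**Figure D3:**
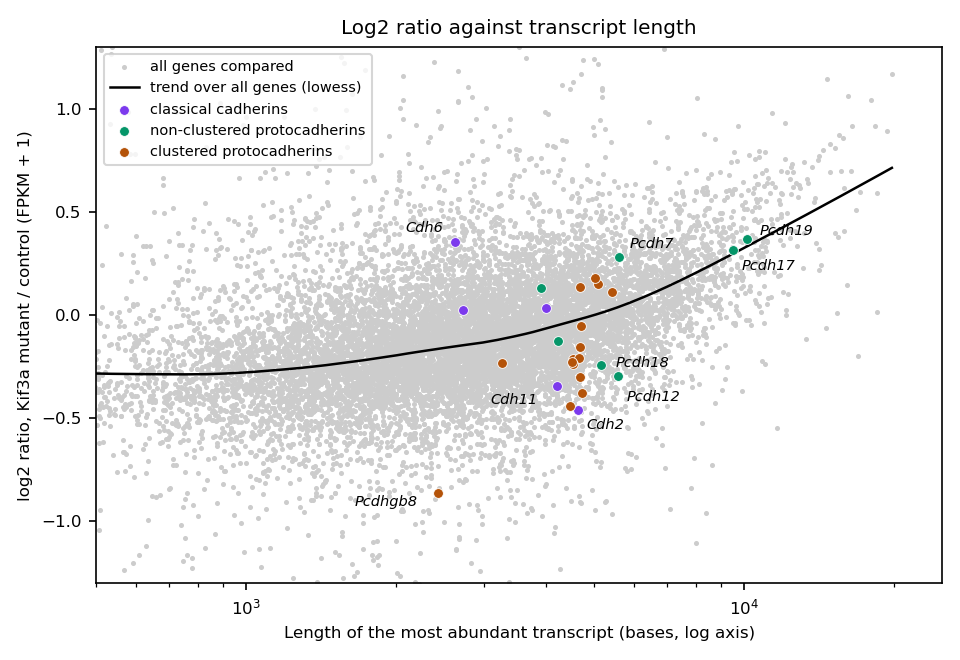
Log2 ratio of Kif3a mutant over control against the length of the most abundant transcript (log axis) for the genes compared (grey) with their trend (black line) and the members over the filter in colour. Of 12259 genes, 393 lie outside the plotted range, and Pcdh17 and Pcdh19 fall on the line while Cdh2, Cdh11, Pcdh18 and Pcdh12 fall under it and Cdh6 and Pcdh7 over it.

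The 4 delta-2 genes over the filter lie in 1 subfamily and each hold the same short promoter element. They are shown by the 250 bases before their start in RefSeq (GRCm38.p6). Each reads 5′ to 3′ towards the gene. Capitals mark ATTGG, the reverse complement of the CCAAT box that the factor NF-Y binds. The windows lie at chr3:45378148-45378397 on the plus strand for Pcdh10, chr14:84443313-84443562 on the plus strand for Pcdh17, chr3:49757317-49757566 on the minus strand for Pcdh18 and chrX:133688994-133689243 on the minus strand for Pcdh19.
Pcdh10: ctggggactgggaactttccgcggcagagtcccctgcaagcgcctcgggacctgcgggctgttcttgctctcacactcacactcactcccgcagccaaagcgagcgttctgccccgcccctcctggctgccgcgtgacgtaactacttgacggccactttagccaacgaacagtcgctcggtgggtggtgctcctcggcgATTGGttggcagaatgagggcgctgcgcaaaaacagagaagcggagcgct
Pcdh17: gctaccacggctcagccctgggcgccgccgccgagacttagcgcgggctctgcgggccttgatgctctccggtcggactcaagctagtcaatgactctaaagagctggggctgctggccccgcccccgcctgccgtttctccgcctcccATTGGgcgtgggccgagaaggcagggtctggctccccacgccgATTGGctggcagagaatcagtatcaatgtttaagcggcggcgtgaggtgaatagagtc
Pcdh18: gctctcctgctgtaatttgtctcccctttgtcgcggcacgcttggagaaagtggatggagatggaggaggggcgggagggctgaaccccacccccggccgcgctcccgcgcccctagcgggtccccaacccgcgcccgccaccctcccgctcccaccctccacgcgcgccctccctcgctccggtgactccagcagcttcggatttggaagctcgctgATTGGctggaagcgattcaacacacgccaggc
Pcdh19: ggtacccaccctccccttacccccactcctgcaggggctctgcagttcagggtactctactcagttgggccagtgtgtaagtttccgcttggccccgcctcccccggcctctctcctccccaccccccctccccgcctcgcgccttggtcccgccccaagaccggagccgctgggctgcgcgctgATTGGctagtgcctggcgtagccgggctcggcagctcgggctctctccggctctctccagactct
The element begins 50 bases before the start in Pcdh10, 32 in Pcdh18 and 65 in Pcdh19, and Pcdh17 has it at 101 and at 58 bases. It is not particular to these genes. The fifth delta-2 gene, Pcdh8, which is under the filter, has it at 68 bases. Cdh7, Cdh20, Cdh26 and Pcdh15 also hold ATTGG in a window of theirs. Promoters were at hand for 21 of the 88 members, some with several starts, 24 in all, and 15 of these (62.5%) hold CCAAT on either strand, against 33.8% of 32851 promoters. The 24 covered promoters are also rich in CG pairs, with a median of 10.5 against 6 for all promoters in the same window. The GLI consensus GACCACCCA was in 0 of the 24, and in 0.225% of all promoters. The E-box CACCTG, which repressors such as Snail and Zeb bind, was in 3 of the 24 (12.5%) against 17.2% of all. These 3 belong to Cdh7, which has several starts, and Pcdh15. The promoters of Cdh6, Cdh24 and Pcdh7 hold none of the 3 motifs in this window. A match is a description and not a binding site. Whether the element has a part in the ratios of these genes was not tested.

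Both delta-1 protocadherins over the filter were higher. Pcdh7, known in frog embryos for its role in the neural fold, stood at 6.60 FPKM in the mutant and 5.24 FPKM in the control, a ratio of 1.26 (1.15 to 1.38), with a log2 ratio of 0.28, or 0.24 minus the length trend. All 3 of its transcripts were higher in the mutant, the main one of 5610 bases at 4.22 FPKM in the mutant and 3.24 FPKM in the control. Pcdh1, found in epithelia, stood at 4.72 FPKM in the mutant and 4.22 FPKM in the control, a ratio of 1.12 (0.958 to 1.31). Pcdh9, with a transcript of 6128 bases, was under the filter at 0.682 FPKM in the mutant and 0.444 FPKM in the control, a ratio of 1.53 (1.13 to 2.10). Pcdh11x had about 20 fragments in the mutant and 19 in the control.

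Pcdh12, the protocadherin of endothelium, was lower. It stood at 1.75 FPKM in the mutant and 2.37 FPKM in the control, 1.35-fold lower (1.14 to 1.61), and its log2 ratio of -0.29 was -0.33 minus the length trend. The 7 endothelial markers summed to 46.8 FPKM in the mutant and 67.1 FPKM in the control, with log2 ratios from -0.78 for Cldn5 to -0.04 for Tek and 0 of them listed at 0 in both libraries. VE-cadherin, Cdh5, which is left out of the members, stood at 9.24 FPKM in the mutant and 13.8 FPKM in the control. The part of the endothelial cells in the value of Pcdh12 was not tested. Pcdh20 stood at 0.136 FPKM in the mutant and 0.248 FPKM in the control, and Pcdh15, the partner of Cdh23 in hair cells, had about 7 fragments in the mutant and 4 in the control.

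The clustered protocadherins lie side by side on chromosome 18, with the alpha cluster from 36930285 to 37187660, the beta cluster from 37264998 to 37521419 and the gamma cluster from 37661945 to 37841872. The alpha and gamma genes each splice 1 variable exon to shared constant exons, and all 22 gamma genes end at the same base. Fragments from the shared part cannot be assigned to 1 gene, so single alpha and gamma values are estimates. The 21 beta genes have 1 transcript each, whose length equals its span in the genome, that is, a single exon with no shared part. They are similar in sequence, and no source used here says how reads matching several of them were counted.

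The beta genes were low, and as a set lower in the mutant. Of the 21, 18 were lower in the mutant and 2 higher, with Pcdhb1 listed at 0 in both libraries, where 53.6% of low genes were lower. Summed FPKM was 5.92 in the mutant and 8.92 in the control, a ratio of 0.664 (0.600 to 0.734) on about 667 and 916 fragments. That is 0.736 of the median ratio of all genes. Over the alternatives computed for this sum it lay between 0.736 and 0.749 of the median ratio. Most of these could hardly move it, because a pseudocount does not enter this value and the rescaling of a library nearly cancels. The value was not computed with the length trend removed or without the filter. For 912 low genes with a single transcript of 2000 to 4000 bases, the ratio of sums was 0.998.

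Of the beta genes only Pcdhb17 passed the filter. It stood at 0.889 FPKM in the mutant and 1.22 FPKM in the control, a ratio of 0.731 (0.539 to 0.988). With at least 10 fragments in both libraries, 15 beta genes had ratios from 0.400 to 1.68 with a median of 0.627, and 14 were below 1. The intervals of 5 of these 15 lay wholly below the median ratio and of 0 above it, where 29.1% and 32.1% of genes over the filter did so. These 5, named after their values were seen, were Pcdhb3 at 0.260 FPKM in the mutant and 0.651 FPKM in the control, Pcdhb7 at 0.356 and 0.783 FPKM in the same order, Pcdhb16 at 0.202 and 0.425 FPKM, Pcdhb20 at 0.545 and 0.953 FPKM, and Pcdhb22 at 0.609 and 1.02 FPKM. They lie at both ends of the cluster, with genes near the median ratio, such as Pcdhb4 and Pcdhb19, beside them.

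**Figure D4:**
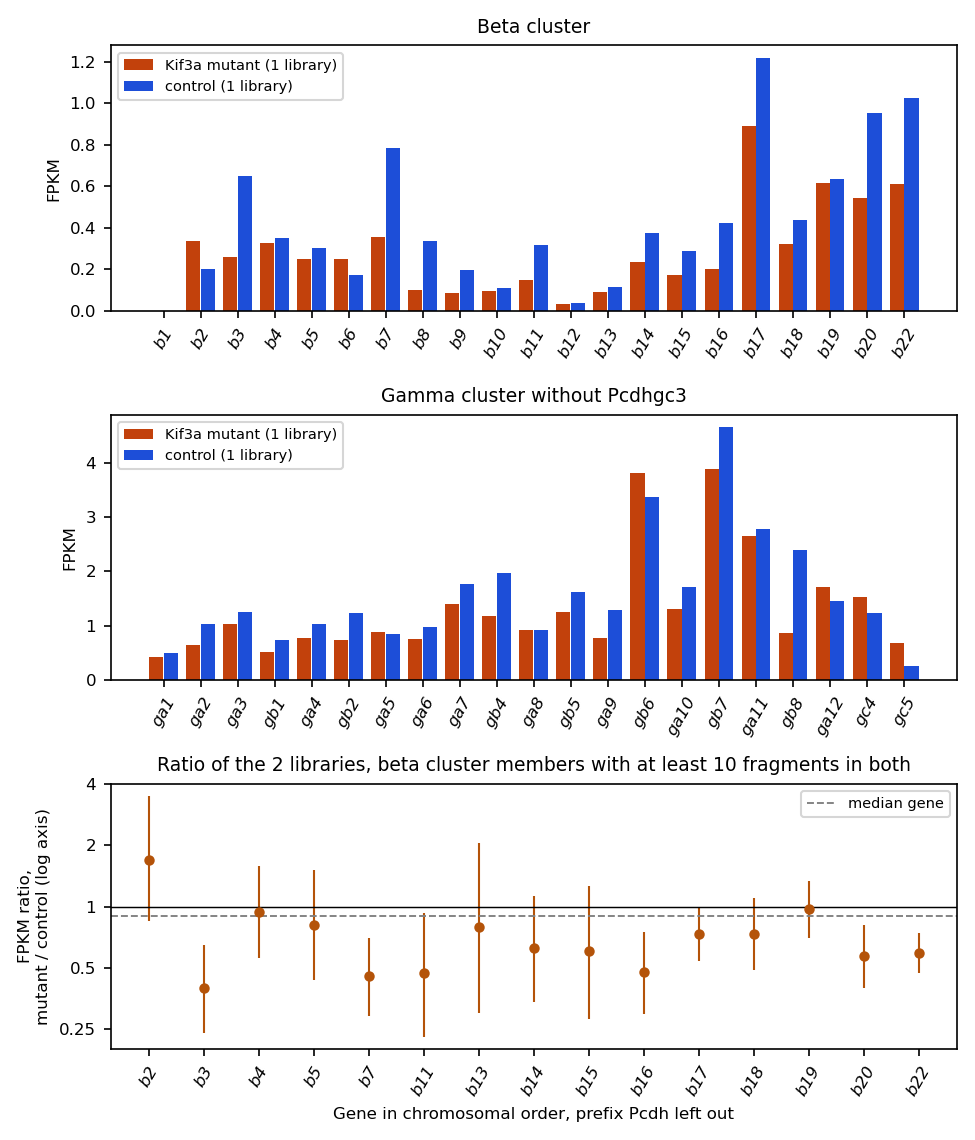
FPKM of each beta gene (top) and of each gamma gene except Pcdhgc3 (middle) in the Kif3a mutant and control libraries, in chromosomal order, and the ratio with its 95% counting interval (bottom, log axis) for the 15 beta genes with at least 10 fragments in both. In the top panel 18 of 21 genes have the shorter bar in the mutant, and in the bottom panel 14 of 15 ratios lie below 1.

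The gamma cluster was dominated by Pcdhgc3, a gene of the C type, a type that neurons use without the random choice that other clustered genes undergo. It stood at 38.96 FPKM in the mutant and 48.2 FPKM in the control, 1.24-fold lower (1.19 to 1.29), with a log2 ratio of -0.30, or -0.28 minus the length trend. It held 58.5% of the summed gamma FPKM in the mutant and 59.4% in the control. Next came Pcdhgb7 at 3.88 FPKM in the mutant and 4.65 FPKM in the control, so that Pcdhgc3 exceeded it 10.04-fold in the mutant and 10.4-fold in the control. The cluster as a whole stood at 66.6 FPKM in the mutant and 81.1 FPKM in the control. Its ratio of 0.821 (0.797 to 0.846) is 0.910 of the median ratio of all genes. Without Pcdhgc3 it stood at 27.6 FPKM in the mutant and 32.9 FPKM in the control, a ratio of 0.839 (0.800 to 0.879). Without Pcdhgb8 too, whose transcripts conflict as given below, it stood at 26.8 FPKM in the mutant and 30.6 FPKM in the control. The ratio was then 0.876 (0.835 to 0.919), and this interval spans the median ratio of 0.902.

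Of the 12 gamma A genes, 10 were lower in the mutant, with Pcdhga8 nearly level, where 67.9% of genes over the filter and 53.6% of low genes were lower. Their sum was 13.2 FPKM in the mutant and 15.5 FPKM in the control, a ratio of 0.852 (0.796 to 0.911). Pcdhga9 differed most among those over the filter, at 0.761 FPKM in the mutant and 1.29 FPKM in the control, a ratio of 0.591 (0.453 to 0.7697). Pcdhga3, Pcdhga7 and Pcdhga10 stood at 1.03, 1.39 and 1.302 FPKM in the mutant and at 1.26, 1.76 and 1.71 FPKM in the control. Pcdhga11 stood at 2.64 FPKM in the mutant and 2.78 FPKM in the control. Pcdhga12, the last A gene before the C genes, was higher at 1.71 FPKM in the mutant and 1.45 FPKM in the control, a ratio of 1.18 (0.971 to 1.45). Under the filter, Pcdhga4 stood at 0.774 FPKM in the mutant and 1.02 FPKM in the control, and Pcdhga8 at 0.909 and 0.924 FPKM.

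Of the 7 gamma B genes, Pcdhgb8 is set apart because its transcripts conflict. Of the other 6, 5 were lower, against the same shares of all genes, and their sum was 11.4 FPKM in the mutant and 13.6 FPKM in the control, a ratio of 0.837 (0.777 to 0.901). With Pcdhgb8 the sum was 12.2 FPKM in the mutant and 15.96 FPKM in the control. Pcdhgb4 stood at 1.18 FPKM in the mutant and 1.96 FPKM in the control, a ratio of 0.602 (0.483 to 0.749), and Pcdhgb5 at 1.24 FPKM in the mutant and 1.63 FPKM in the control. Pcdhgb6 was the exception at 3.80 FPKM in the mutant and 3.37 FPKM in the control, a ratio of 1.13 (0.984 to 1.295). Pcdhgb2, just under the filter, stood at 0.742 FPKM in the mutant and 1.24 FPKM in the control. Pcdhgb8 had the lowest log2 ratio of all members, -0.86, or -0.70 minus the length trend, at 0.859 FPKM in the mutant and 2.38 FPKM in the control. This value rests on 2 transcripts that go opposite ways. The one of 4617 bases, which starts at the gene's own place in the array, stood at 0.694 FPKM in the mutant and 0.148 FPKM in the control, while one of 2424 bases, which starts downstream of the start of the last C gene, stood at 0.165 FPKM in the mutant and 2.24 FPKM in the control. The short transcript alone gave a log2 ratio of -1.32 relative to the median gene, so no direction is read from Pcdhgb8. It stands among the lower genes in the counts over all members and over the clustered genes. Its FPKM is also part of the sums over the whole gamma cluster and over all clustered genes.

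The other C genes of the gamma cluster were higher. Pcdhgc4 stood at 1.52 FPKM in the mutant and 1.22 FPKM in the control, a ratio of 1.24 (1.0002 to 1.54). Pcdhgc5, under the filter and named after its value was seen, stood at 0.683 FPKM in the mutant and 0.258 FPKM in the control on about 85 and 29 fragments, a ratio of 2.65 (1.72 to 4.19). The only alpha gene over the filter was also of the C type: Pcdhac2 stood at 1.41 FPKM in the mutant and 1.23 FPKM in the control, a ratio of 1.15 (0.931 to 1.42), and held 89.5% of the summed alpha FPKM in the mutant and 76.1% in the control. The other 13 alpha genes had at most 0.0459 FPKM in the mutant and 0.0698 FPKM in the control, and 2 were listed at 0 in both. Pcdhac1, also of the C type, is 1 of these 13. It was listed at 0 in the mutant and at 0.0384 FPKM in the control, on about 5 fragments. The 7 neuronal markers summed to 10.4 FPKM in the mutant and 15.04 FPKM in the control, and 0 were listed at 0 in both libraries. Of the 3 over the filter, Tubb3, the bulk of that sum, stood at 6.29 FPKM in the mutant and 8.92 FPKM in the control, and Nefl at 0.742 and 1.58 FPKM in the same order. Dcx went the other way, at 2.12 FPKM in the mutant and 1.58 FPKM in the control, but its log2 ratio of 0.27 was 0.0026 minus the length trend. The part of neurons in the protocadherin values was not tested.

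Over all clustered genes, 42 of 57 were lower and 12 higher in the mutant, where 67.9% of all genes over the filter and 53.6% of low genes were lower. The summed ratio, with Pcdhgb8 included, was 0.808 (0.786 to 0.832). The 15 over the filter had a median log2 ratio of -0.21, against -0.13 for all genes, and 10 lay below the median gene, or 9 without Pcdhgb8, where 44.4% of the 3386 genes with a mean FPKM of 1 to 5 did so. Relative to that of all genes, this median was -0.08, or -0.18 once the length trend was removed and 0.01 with a pseudocount of 5. The 7 non-clustered protocadherins over the filter had a median of 0.13, and 5 lay above the median gene. Relative to all genes this median was 0.26, and 0.03 with the length trend removed.

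No listed partner gene over the filter was past 2-fold, where 2.13% of all genes were. Below the median gene lay 50% of all genes by definition, and 29.6% of genes of 4000 to 6000 bases. Of 24 listed catenin and adherens junction names, 20 were in the tables and 18 passed the filter. Of these, 5 lay below and 13 above the median gene, with 0 past 2-fold. Their median log2 ratio was -0.07, and the median minus the length trend was -0.0095. Beta-catenin, Ctnnb1, the most abundant, stood at 414 FPKM in the mutant and 451 FPKM in the control, and the afadin gene Mllt4 (0.44), the beta-catenin inhibitor gene Ctnnbip1 (-0.37), the nectin gene Pvrl2 (-0.24) and the cortactin gene Cttn (-0.24) had the largest log2 ratios. Minus the length trend these were 0.28, -0.22, -0.10 and -0.12 in the same order. Among 11 other genes of the cadherin superfamily over the filter, 8 lay above and 3 below the median gene with 0 past 2-fold, and their median of 0.12 was -0.08 minus the length trend. The giant cadherin Fat1 stood at 23.3 FPKM in the mutant and 24.3 FPKM in the control. Its transcript of 14627 bases is long even here, and its log2 ratio of -0.06 was -0.60 minus the length trend; for Fat4 the values were 0.15 and -0.45. The genes with the largest log2 ratios were Fat3 (0.59), Cdhr4 (-0.58) and the planar polarity genes Celsr1 (0.36) and Celsr2 (0.32). Minus the length trend these were -0.08 for Fat3, -0.29 for Cdhr4, -0.02 for Celsr1 and -0.04 for Celsr2. Of 20 genes for cadherin shedding and for the factors that act at protocadherin promoters, all passed the filter. In this list 16 lay above and 4 below the median gene with 0 past 2-fold. The median log2 ratio was -0.007, and the median minus the length trend was 0.03. Rad21, a cohesin subunit and the most abundant, stood at 90.1 FPKM in the mutant and 102 FPKM in the control, and the promoter factor Ctcf at 45.1 FPKM in the mutant and 47.2 FPKM in the control. The cohesin regulators Wapal (0.26) and Nipbl (0.23), the gamma-secretase gene Ncstn (-0.22) and the protease gene Adam15 (-0.18) had the largest log2 ratios, which minus the length trend were 0.29, -0.03, -0.08 and -0.08.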

How the data were processed

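For each library the authors deposited a table of 59120 transcripts with, per the file headers, FPKM, coverage, length, position and status. The table names mention Cufflinks, whose version is, like the aligner and the use of strand, not given in the sources used here. As build, the submitters' processing notes name mm9, but 72.1% of 45475 transcripts whose symbol occurs in GENCODE M21 shared a start or an end with it, so coordinates are given on GRCm38, with 1 added to the start to make them 1-based. In 65 lines displaced columns lost the FPKM, and these were left out. The log2 ratio is log2((mutant FPKM + 1) / (control FPKM + 1)), with a pseudocount of 1, which understates differences of low genes, and a filter of 1 on the mean FPKM. Approximate fragments are deposited coverage times length over the yield of 1 fragment, 153 bases in the mutant and 156 in the control, the median of values of 80 to 220 bases among single transcripts over 1500 bases. Intervals are exact Clopper-Pearson intervals on these, scaled to the FPKM ratio. In simulated data for this comparison 95.4% of intervals for 12259 genes held the true ratio. These data were drawn from the counting model that the intervals assume, so this checks the calculation alone. Errors in approximating fragments, or in assigning those shared between genes, were not simulated. Estimates under 0.001 FPKM are given as listed at 0. The length trend is a lowess fit with a fraction of 0.3 (statsmodels 0.14.6, Python 3.11.15, scipy 1.17.1). No p-value was computed. Members over the filter, and the 3 highest under it in each family, are named, with up to 4 genes and the most abundant of each partner list. Members, lists and rules were chosen with earlier results of these data known.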

Additional observations from a re-analysis of the deposited data

How the results depend on the processing

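Recomputed under 11 alternatives, 21 of the 27 members over the filter stayed on 1 side of the median gene under every alternative that could give them a value, 10 below (Pcdhgb8 among them) and 11 above. Centring on the median gene, 1 of the 11, cannot change a side, and rescaling a whole library can do so only through the pseudocount and the filter. The exceptions, near the median gene to begin with, were Pcdh10, Pcdhb17, Pcdhga3, Pcdhga7, Pcdhga11 and Pcdhgb5. Group medians are given minus that of all genes. A pseudocount of 0.1 put 1 clustered gene (Pcdhgb8) past 2-fold, as did the most abundant transcript alone (1), and gave 179 higher and 312 lower genes overall; a pseudocount of 5 gave 36 and 56, and left 6 clustered genes below the median gene. With no filter the medians were 0.014 for classical cadherins and 0.035 for non-clustered protocadherins, with 6, 6 and 32 classical, non-clustered and clustered genes below the median gene; this alternative adds genes near 0. With the filter at a mean FPKM of 5, the non-clustered median was 0.017, 1 non-clustered and 1 clustered gene lay below the median gene, and 54 genes were higher and 88 lower. TPM-like scaling gave 467 and 68, or 161 and 110 without transcripts under 200 bases. Removing the length trend gave a non-clustered median of 0.026 and 109 lower genes. The cause was not tested except where the alternative itself sets it. Leaving out Pcdhgb8, Pcdhgc3 or Pcdhb22, and using fragments in place of FPKM (0.738 for the beta cluster), were chosen after seeing the data. Depth limits single beta and alpha genes, most with under 100 fragments. No paired analysis was possible because each group has 1 library.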

Other observations

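The deposited tables also list a transcript named Pcdha4-g, outside the naming rule of the members, that runs from 36952689 in the alpha cluster to 37841872 at the end of the gamma cluster. Its FPKM was 4.07e-05 in the mutant and 5.66e-06 in the control, so almost no fragments were assigned to a transcript joining both clusters.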
